A study of Mus musculus with 8 samples.

Results

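The AP-1 and immediate early genes described here were 10 of the 31053 genes listed for mouse skin: Fos, Fosb, Fosl1, Fosl2, Jun, Junb, Jund, Atf3, Egr1 and Ier2. They were taken by gene symbol and not by a cut on their measured values, and each symbol matched 1 row. The group and the gene lists used below were chosen with earlier results of these data known. All 10 were detected.

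The cells came from dorsal skin of female BALB/c mice aged 14 to 16 weeks. PBMCsec, the material that irradiated mononuclear cells of the blood release into their medium, was injected under the skin in 4 samples, and a vehicle was injected in 4 samples. Biopsies were dissociated with enzymes and sequenced as 10x Genomics 3′ libraries, 1 per sample. All groups shared sex, strain, tissue and dissociation. Wounding, time point and control solution are not given for single samples in the labels, so libraries were grouped by treatment alone. The labels also do not say that each library came from a separate mouse, so the p-values measure the spread between libraries.

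AP-1 is a transcription factor made of pairs of basic leucine zipper proteins, in which a FOS family protein joins a JUN family protein, or JUN proteins pair with each other or with ATF proteins. Immediate early genes are transcribed within minutes of a stimulus from factors already in the cell, without new protein synthesis, and MAP kinase signalling is their main inducer. In skin, AP-1 is known for its part in keratinocyte differentiation and wound repair, and the same genes are known to be switched on while tissue is taken apart with warm enzymes.

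In the FOS family, Fos lies on the plus strand of chromosome 12 (85473890 to 85477273) and Fosb on the minus strand of chromosome 7 (19302696 to 19310051), both in mm10. Jun, on the minus strand of chromosome 4 (95049034 to 95052222), is overlapped by the antisense gene Junos, and Junb, on the minus strand of chromosome 8 (84974484 to 84978718), overlaps Prdx2 on the other strand. Atf3 lies on the minus strand of chromosome 1 (191170296 to 191218039). Promoters of 7 members were matched by symbol in RefSeq (GRCm38.p6), and the 250 bases before the start are shown for Fos and Jun, because these were the members whose windows held a searched motif. Capitals mark the motif, a TATA box (TATAAA, searched on the gene's strand) in Fos and the element TGACATCA (searched on both strands) in Jun.
Fos promoter, chr12:85473640-85473889, plus strand: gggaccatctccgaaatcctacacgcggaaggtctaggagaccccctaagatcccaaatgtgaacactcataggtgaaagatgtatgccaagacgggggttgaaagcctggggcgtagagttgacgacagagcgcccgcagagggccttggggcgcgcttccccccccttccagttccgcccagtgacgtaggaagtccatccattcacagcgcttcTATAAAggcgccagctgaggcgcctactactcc
Jun promoter, chr4:95052223-95052472, minus strand: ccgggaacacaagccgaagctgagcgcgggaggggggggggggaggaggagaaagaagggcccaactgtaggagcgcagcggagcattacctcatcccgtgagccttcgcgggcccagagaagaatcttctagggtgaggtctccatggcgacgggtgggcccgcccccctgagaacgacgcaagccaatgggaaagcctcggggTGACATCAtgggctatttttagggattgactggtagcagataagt
The TATA box of Fos lay at -33 to -28 and the element of Jun at -45 to -38, counted back from the start. Of 32817 promoters of this length, 7.60% held TATAAA and 2.93% held TGACATCA. The AP-1 element TGACTCA, the cAMP response element TGACGTCA and the CArG box were found in 4.46%, 1.55% and 1.47% of all promoters and in 0 of the 7 member promoters. These are matches of letters in this window and say nothing about binding. Windows were set by RefSeq starts, so the count of 0 holds for those windows only. For Fosl2, Jund and Atf3 the RefSeq start differs from the gene start in the annotation that gave the coordinates above. The Jund window, for example, ended at 70697738, and the annotated gene starts at 70698949.

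Of 26231 barcodes, 6150 (23.4%) passed the limits of 500 to 4000 genes, 20000 UMIs and 5% mitochondrial counts, and 151 to 1659 cells were kept per library. The total lay between 14753926 and 37880651 UMIs per library, and the median kept cell had 6156 to 9521 UMIs. Libraries shared at most 2 barcodes per pair. The members and the gene lists used below were left out of the clustering. By their markers, 1348 cells were fibroblast-like (FBs), 746 T cell-like (TCs), 517 dendritic cell- or macrophage-like (DCs/Mac) and 2860 were epithelial, with markers of keratinocytes (KCs) and hair follicles (HFs) counted together (KC/HF). These classes had at least 15 cells in every library. Vehicle replicates 1 and 2 were the smallest, with 28 and 20 FBs. Levels are given on the CPM scale, as UMIs of the gene relative to all UMIs of that class in that library, and as 3′ UMIs count molecules they were not divided by gene length.

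Among the FOS family, Fosl1, which codes for the subunit Fra-1, was found mainly in epithelial cells. Its KC/HF level was 217, 30.5, 159 and 36.3 CPM in PBMCsec replicates 1 to 4 and 109, 148, 67.2 and 116 CPM in vehicle replicates 1 to 4. In FBs it reached at most 28.6 CPM in any library, and in TCs and DCs/Mac it was counted 3 and 6 times in all. The KC/HF class was higher than FBs in 8 of 8 libraries, by 3.70 ± 1.75 (SD) on the log2 scale. This is given as a description, because Fosl1 entered the values compared through KC/HF, where it is high.

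Fosl2, which codes for Fra-2, was highest in TCs among the 4 classes instead. There it was 367, 205, 338 and 164 CPM after PBMCsec and 265, 309, 164 and 124 CPM after vehicle. It was higher in TCs than in DCs/Mac, the next class, in 8 of 8 libraries, by 1.01 ± 0.40 (SD, log2, exact sign-flip permutation test, adjusted p = 0.0293). Adjustment ran over 30 pairs of neighbouring classes, and this was the smallest adjusted p among them. DCs/Mac, KC/HF and FBs followed with means of 107, 103 and 103 CPM, and these neighbours did not differ beyond their spread.

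Fos is the founding member and the one best known as an early response gene. Among FBs, KC/HF, DCs/Mac and TCs, its mean was highest in FBs. The FB values were 1178, 731, 1087 and 856 CPM after PBMCsec and 1954, 1402, 864 and 929 CPM after vehicle, so the groups overlapped. The mean level was 1125 ± 397 CPM in FBs, 995 ± 339 in KC/HF, 694 ± 217 in DCs/Mac and 463 ± 127 in TCs (SD, n = 8 libraries). No neighbouring pair in this order passed the exact permutation test, with the closest being DCs/Mac over TCs (7 of 8 libraries, adjusted p = 0.0521). Fosb, its close relative, averaged 570 ± 365 CPM in FBs and between 291 and 359 CPM in KC/HF, DCs/Mac and TCs. No neighbouring pair of Fosb passed.

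In the JUN family the order differed from gene to gene. Jun, the partner that can also pair with itself, stood at 1995, 1165, 3051 and 830 CPM in KC/HF after PBMCsec and at 1524, 2475, 1440 and 1391 CPM after vehicle. Its levels descended from KC/HF to FBs, DCs/Mac and TCs (means 1734, 1067, 589 and 252 CPM), and each step was seen in 8 of 8 libraries (exact sign-flip permutation test, adjusted p = 0.0293 for each step). Jun was thus the member whose 4 levels were all separated.

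Junb, a JUN protein with weaker activation that can counter Jun, was highest in TCs among the 4 classes. The TC values were 1876, 1654, 2273 and 2580 CPM after PBMCsec and 1788, 1893, 2095 and 2198 CPM after vehicle. TCs were above KC/HF in 8 of 8 libraries, by 0.88 ± 0.74 (SD, log2, exact sign-flip permutation test, adjusted p = 0.0293). Jund, which is expressed without a stimulus in most cells, was the most even of the 10 over these classes, with means of 1052 CPM in FBs, 993 in TCs, 804 in KC/HF and 610 in DCs/Mac, and none of these neighbours was separated. It was also detected in the largest share of cells, 87.6% of all kept cells.

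Atf3, a stress-induced ATF family protein that pairs with JUN proteins and often represses, was found in KC/HF and DCs/Mac. In KC/HF it was 1084, 604, 2074 and 394 CPM after PBMCsec and 598, 1565, 712 and 925 CPM after vehicle. In DCs/Mac it was 637, 582, 605 and 206 CPM after PBMCsec and 876, 518, 608 and 567 CPM after vehicle. These classes did not differ beyond their spread (adjusted p = 0.161), whereas DCs/Mac stood above FBs in 8 of 8 libraries, by 1.81 ± 1.04 (SD, log2, exact sign-flip permutation test, adjusted p = 0.0293). TCs were lowest, with a mean of 68.6 ± 34.8 CPM (SD, n = 8).

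Egr1, a zinc finger factor outside AP-1 that responds to the same signals, split the classes into a high and a low pair. In FBs it was 827, 551, 899 and 616 CPM after PBMCsec and 1131, 1031, 599 and 572 CPM after vehicle. In DCs/Mac it was 49.3, 43.4, 102 and 37.8 CPM after PBMCsec and 232, 51.0, 105 and 15.8 CPM after vehicle. FBs and KC/HF did not differ beyond their spread, nor did TCs and DCs/Mac, but the step from KC/HF to TCs was 3.04 ± 1.11 (SD, log2) and was seen in 8 of 8 libraries (exact sign-flip permutation test, adjusted p = 0.0293). Ier2, an immediate early nuclear protein, had means of 345, 244, 207 and 136 CPM in KC/HF, FBs, TCs and DCs/Mac, and no neighbouring pair was separated.

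**Figure D1:**
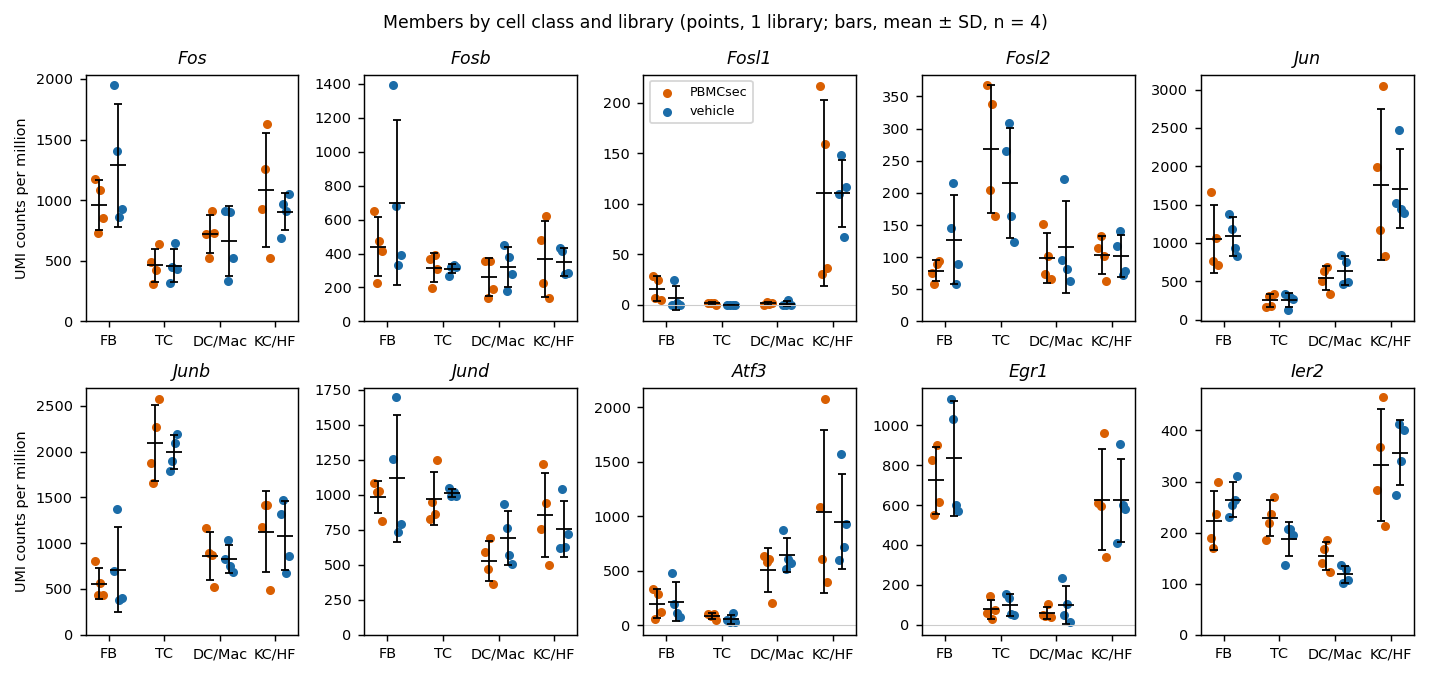
Level of each member (CPM of the summed UMIs, linear axes with a scale of their own) in the 4 classes, with 1 point per library coloured by treatment and bars for the mean and SD of the 4 libraries of each treatment. Fosl1 lies near 0 outside KC/HF, Junb and Fosl2 are highest in TCs, and Egr1 is higher in FBs and KC/HF than in TCs and DCs/Mac.

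Each class was also compared with the mean of the other 3 in 1 fit with the library as a factor (edgeR's quasi-likelihood test, Benjamini-Hochberg adjustment over 8623 genes, adjusted p under 0.05). Fosl1 entered this fit through KC/HF, where it is high, and rests on 3 and 6 UMIs in TCs and DCs/Mac, so that it is left out of the counts and its levels above are a description. In KC/HF, 5 of the other 9 members were higher, against 38.2% of all genes, and 1 was lower, against 28.9%. The higher ones included Atf3 (2.27 ± 0.23, log2, SE), Egr1 (1.90 ± 0.21) and Jun (1.64 ± 0.17). Ier2 was 0.82 ± 0.12 higher and Fosl2 0.41 lower. Fos was 0.48 ± 0.18 higher, but its call was lost with a mitochondrial limit of 10% (0.18), without the highest Scrublet scores (0.40), and without PBMCsec replicate 2 (0.34), PBMCsec replicate 3 (0.37) or vehicle replicate 4 (0.43). With the 10% limit, 4 members were lower in KC/HF.

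In FBs, 5 of these 9 members were higher and 3 lower, against 34.6% and 37.1% of all genes. Egr1 was 2.30 ± 0.21 higher (log2, SE), and Jun, Fosb, Fos and Jund were higher by 0.75 ± 0.18, 0.74 ± 0.17, 0.72 ± 0.18 and 0.41 ± 0.13. Junb was lower by 1.03 ± 0.17 in size (log2 difference -1.03), Atf3 had a difference of -0.87 ± 0.27 and Fosl2 of -0.46 ± 0.15. The Fosl2 call was lost without PBMCsec replicate 1 (-0.33) or 3 (-0.37).

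In TCs, 2 of the 9 members were higher and 4 lower, against 28.7% and 32.5% of all genes. Junb (1.26 ± 0.15, log2, SE) and Fosl2 (1.13 ± 0.15) were higher, and Atf3 (-2.84 ± 0.31), Egr1 (-2.12 ± 0.28), Jun (-2.11 ± 0.22) and Fos (-1.12 ± 0.20) were lower. In DCs/Mac, Atf3 alone was higher (1.43 ± 0.24) and 3 of the 9 members were lower, against 28.9% and 27.4% of all genes. The lower ones were Egr1 (-2.08 ± 0.28), Ier2 (-0.77 ± 0.14) and Jund (-0.52 ± 0.14). The median difference of the 9 members was 0.48 in KC/HF, 0.41 in FBs, -0.35 in TCs and -0.28 in DCs/Mac, beside 0.08, -0.06, -0.08 and -0.05 over all genes.

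The classes hid a wider range between clusters, which is given as a description. Among the 13 clusters of KC/HF, Fos ranged from 115 to 2808 CPM, Atf3 from 15.4 to 3408 CPM and Jun from 488 to 3566 CPM. The upper end of all of these was the same cluster, 333 cells led by Gnai1, Ndufa4l2 and Sox6, with Krt5 and Krt14 but too few markers to be named alone. Its Atf3 level lay between 1902 and 5103 CPM in the 6 libraries with at least 10 such cells. The lower end of Fos and Atf3 was a cluster of 223 cells led by Tagln, Dio3 and Acta2, with the hair follicle markers Lhx2 and Lgr5, in which Fosb was at 7.93 CPM. Jund and Ier2 varied less, from 231 to 1094 CPM and from 174 to 652 CPM.

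Fosl1 was concentrated further. A KC cluster of 220 cells, with Serpinb2 and Fosl1 itself among its leading genes, held 45.0% of all Fosl1 UMIs with 3.58% of the cells, at 574 CPM. A differentiated KC cluster led by Krt1 and Krt10 held a further 19.5% at 198 CPM, and the cluster led by Gnai1 held 17.4% at 156 CPM. Serpinb2 codes for a protease inhibitor of the epidermis, and Krt1 and Krt10 are the keratins of its upper layers.

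Outside the 4 classes, the cells were few. In 119 neutrophil-like cells Fos stood at 2790 CPM, Junb at 3729 CPM, Atf3 at 1855 CPM and Fosl2 at 574 CPM, while no Fosl1 UMI was found (0 of 119 cells, which allows a share of cells with a UMI of up to 2.52%). Their median depth was 1531 UMIs per cell. The 39 cells with smooth muscle and pericyte markers had Fos at 3923 CPM and Egr1 at 1387 CPM. An unnamed cluster of 90 cells, led by the cytokine genes Csf2 and Il13 and by Arg1, had the highest Junb level, 3883 CPM.

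**Figure D2:**
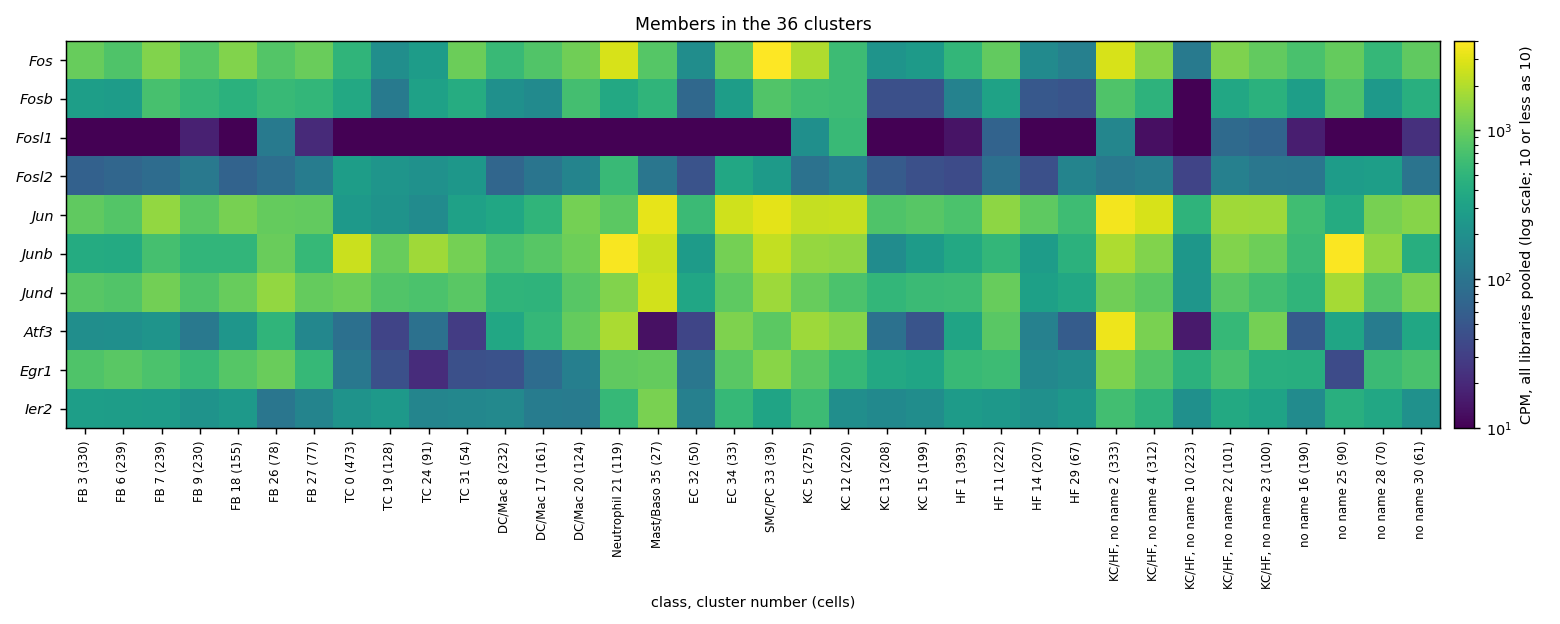
Level of each member in the 36 clusters, coloured by CPM over all libraries on a log scale, with clusters in columns grouped by class and members in rows. The cluster led by Gnai1, Ndufa4l2 and Sox6 is high for Fos, Jun, Atf3 and Egr1 at once, and Fosl1 is high in few KC clusters.

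Within single cells the members were found together in FBs more often than in TCs, though depth differed as well. All of Fos, Jun, Junb and Jund had a UMI in 56.5% of FBs (median 9198 UMIs per cell), 46.3% of KC/HF cells, 43.5% of DCs/Mac and 16.2% of TCs (median 3311 UMIs per cell). The median kept cell held 5 of the 10 members, and 2.28% held none. A UMI of Fosl1 was found in 35.7% of KCs (median 10803 UMIs per cell), in 5.40% of HF cells and in 6.16% of FBs, beside 0.402% of TCs and 0 of 83 endothelial-like cells, which allows a share of cells with a UMI of up to 3.61%. With every cell thinned to 1000 UMIs, these shares were 14.2% in KCs, 1.66% in HF cells, 1.17% in FBs and 0.127% in TCs. No class lacks the other members, so their background of free RNA could not be measured in this way. The shares of cells with a UMI did not pass the test between treatments for any member in any of the 4 classes (40 exact permutation tests, smallest adjusted p = 0.959, and none passed after thinning).

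Across 49 sums of class and library from 8 classes, the genes most like Fos in log2 CPM were Zfp36 (Pearson r = 0.70), Dusp1 (0.66), Bcl6 (0.65), Rabgef1 (0.64) and Ccnl1 (0.61). Zfp36, an mRNA decay factor, and Dusp1, a MAP kinase phosphatase, are themselves immediate early genes. The genes most like Fosl1 were Serpinb2 (0.90), Chit1 (0.90), Tnk1 (0.88), Dsg3 (0.88) and Krt16 (0.87), with Dsg3 a desmosome protein of keratinocytes and Krt16 a keratin of wounded epidermis. Within the group, Fos followed Fosb (0.79), Jund (0.71) and Atf3 (0.68) most closely and Fosl1 least (0.16). The sums share libraries and classes, so these values are descriptions.

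PBMCsec and vehicle were then compared within each class. No member passed the test in any class. Of the 9 members tested in FBs, Fosb had the largest fitted difference, at 648, 224, 473 and 414 CPM after PBMCsec and 1391, 679, 335 and 393 CPM after vehicle. The groups overlapped, and vehicle replicates 1 and 2, the libraries with 28 and 20 FBs, were highest. The log2 differences (PBMCsec minus vehicle, SE) were -0.59 ± 0.43 for Fosb, -0.47 ± 0.36 for Fosl2 and -0.36 ± 0.28 for Fos, and the other 6 tested members lay within 1 SE. In the libraries numbered 3 and 4 alone, all of these turned, to 0.37, 0.41 and 0.20. The test called 0 of the 9 members tested and 0 of 9161 genes (edgeR's quasi-likelihood test, 0%). At an unadjusted p under 0.05, edgeR, DESeq2 and limma each gave 0 members, beside 2.58% of all genes in edgeR. The median over the 9 tested members was -0.19, and over all genes 0.01. Fosl1 had too few counts for the fit, at 28.6, 6.69, 24.6 and 4.34 CPM after PBMCsec and 0, 24.7, 1.99 and 0 CPM after vehicle. The groups overlapped. With the replicate number as a block, where it entered the fit, it had an unadjusted p under 0.05 (edgeR) and was not called. Of the 173 Fosl1 UMIs in FBs, 75 came from a cluster of 78 cells led by Ptx3, Ccl2 and Cxcl1, at 115 CPM. This cluster was seen in 5 libraries, 2 of them with at least 10 of its cells. A single library held 57.7% of its cells.

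In KC/HF, 9 of the 10 members lay above 0. The largest difference was that of Fos (0.32 ± 0.30, log2, SE), which stood at 926, 1259, 1629 and 522 CPM after PBMCsec and at 690, 968, 913 and 1051 CPM after vehicle. PBMCsec replicate 3 was the highest library and PBMCsec replicate 4 the lowest, and with the 10% mitochondrial limit the difference turned to -0.07. The test called 0 of 10 members and 0 of 10943 genes (edgeR, 0%), and 0 members had an unadjusted p under 0.05 by edgeR, DESeq2 or limma, beside 1.57% of all genes in edgeR. The median member difference was 0.12, beside 0.01 over all genes.

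In TCs, Atf3 moved most, at 99.8, 81.2, 105 and 49.8 CPM after PBMCsec and 45.7, 27.7, 111 and 28.0 CPM after vehicle, from 229 UMIs in all. Vehicle replicate 3 was the highest of the 8, so the groups overlapped. The log2 difference was 0.72 ± 0.37 (SE, edgeR adjusted p = 0.996), and the exact permutation test of the 8 values gave p = 0.171. Same-numbered TC libraries deviated together, and with the replicate number as a block the difference was 0.78 (edgeR unadjusted p = 0.0139, adjusted p = 0.696). Fosl2 (0.40 ± 0.30) and Ier2 (0.34 ± 0.22) were the other members beyond 1 SE, and Ier2 turned to -0.17 with the 10% mitochondrial limit. Without the block, the test called 0 of 9 members and 0 of 4399 genes (edgeR, 0%). At an unadjusted p under 0.05 stood 0 members in this fit and in DESeq2, beside 3.46% of all genes in edgeR. With limma, and with the block in edgeR, 1 member, Atf3, had such a p. The block called 13 genes, none of them a member. The median member difference was 0.09, beside -0.01 over all genes.

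In DCs/Mac, the members beyond 1 SE were Egr1 (-0.73 ± 0.53, log2, SE), Jund (-0.37 ± 0.24), Ier2 (0.36 ± 0.22), Atf3 (-0.34 ± 0.30) and Jun (-0.25 ± 0.25). The Egr1 values given above show that vehicle replicate 1 stood apart at 232 CPM, and the difference was 0.15 in the libraries numbered 3 and 4 alone. Jun turned to 0.04 without the highest Scrublet scores. The test called 0 of 9 members and 0 of 5590 genes (edgeR, 0%), with 0 members at an unadjusted p under 0.05 by edgeR, DESeq2 or limma, beside 4.67% of all genes in edgeR. With the replicate number as a block, 0 of the 9 members were called and 0 had an unadjusted p under 0.05 (edgeR). That fit called genes outside the members, as given in the section on processing. The median member difference was -0.25 without the block, beside -0.02 over all genes.

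Summed over all kept cells, where a change in the mix of cells and a change in level cannot be told apart, every member but Ier2 (-0.21 ± 0.20, log2, SE) lay within 1 SE of 0. The test called 0 of 10 members and 0 of 13182 genes (edgeR, 0%), with 0 members at an unadjusted p under 0.05 by edgeR, DESeq2 or limma, beside 2.54% of all genes in edgeR. On simulated counts with the same libraries, the test recovered 21% of 2-fold and 96% of 4-fold changes in FBs, 44% and 100% in TCs, 32% and 100% in DCs/Mac 22% and 91% in KC/HF, and 9% and 76% in all kept cells, so that 2-fold changes of the members would mostly have gone uncalled.

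**Figure D3:**
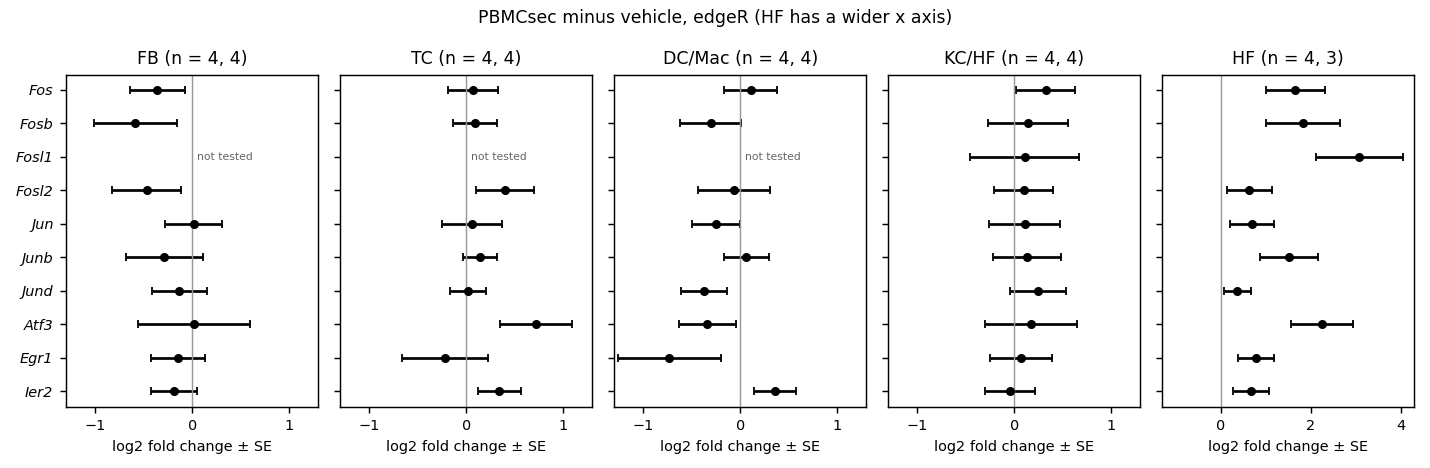
Log2 difference between PBMCsec and vehicle for each member in each class, with bars of 1 SE from edgeR's fit, 4 libraries against 4 (HF: 4 against 3). In the 4 main classes the points lie between -0.73 and 0.72, and in HF cells all 10 lie above 0.

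KCs and HF cells were also fitted alone, a choice made after the cells were counted, in the 7 libraries with at least 10 such cells. In KCs the members lay between -0.15 and 0.49, with 0 of 10 called and 0 at an unadjusted p under 0.05 (edgeR, DESeq2 and limma), beside 1.54% of 8804 genes in edgeR. In HF cells all 10 lay above 0, with a median of 1.14 beside 0.01 over all genes. Atf3 in HF cells was 1324, 710, 1024 and 115 CPM after PBMCsec and 296, 166 and 76.4 CPM in vehicle replicates 2 to 4. PBMCsec replicate 4 lay among the vehicle libraries, and the other PBMCsec libraries lay above them. Fos had the same shape, at 1494, 1723, 1006 and 233 CPM against 688, 314 and 117 CPM.

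The HF differences were 2.25 ± 0.69 for Atf3 (log2, SE), 3.08 ± 0.97 for Fosl1, 1.66 ± 0.66 for Fos, 1.83 ± 0.83 for Fosb and 1.51 ± 0.64 for Junb. These 5 had an unadjusted p under 0.05, beside 2.74% of 9240 genes (1.97% higher), and none passed adjustment (edgeR, adjusted p = 0.9999). The Fosl1 difference rests on 172 UMIs in all. Its level ran from 6.07 to 125 CPM after PBMCsec and from 3.86 to 15.1 CPM after vehicle, so the groups overlapped. DESeq2 gave 2 and limma 4 at an unadjusted p under 0.05, and neither called a member. With the replicate number as a block, 6 members had an unadjusted p under 0.05 (edgeR), and 0 were called. Fos came closest there (log2 difference 1.38, edgeR adjusted p = 0.118), followed by Atf3 (1.57, adjusted p = 0.365). PBMCsec replicate 2 held 22 HF cells and vehicle replicate 2 held 19. With the 10% mitochondrial limit, which left at least 15 HF cells in all 8 libraries, the difference of Atf3 was 0.73 and that of Fos 1.04, and Fosl2 turned from 0.63 to -0.18. The HF cells came from 4 clusters whose shares differed between libraries, from 26.3% to 54.5% for the largest cluster among libraries with at least 10 HF cells, and the part of this mix was not tested.

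Whether treatment acted differently between classes was tested for all 10 members and 6 pairs of classes. The smallest p was that of Ier2 in FBs against TCs, with a difference of effects of -0.65 (exact permutation test, p = 0.0286, adjusted p = 0.857 over 60 tests). None passed.

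Genes around AP-1 were counted in fixed lists, which were chosen with earlier results of these data known. Of 40 other immediate early genes, 33 were tested in FBs, and 0 were called (edgeR). The smallest p values belonged to Myc (1.05 ± 0.35, log2, SE) and Egr3 (1.39 ± 0.47). Socs3, a feedback inhibitor of cytokine signalling, had the smallest p in DCs/Mac (1.93 ± 0.35, edgeR adjusted p = 0.139), followed by Klf4 (0.52 ± 0.23). In TCs they were Tsc22d1 (-1.19 ± 0.27, edgeR adjusted p = 0.263) and Csrnp1 (0.47 ± 0.21), and in KC/HF Ctgf (2.81 ± 0.94) and Nr4a2 (1.62 ± 0.61). The list medians lay between 0.17 in DCs/Mac and KC/HF and 0.27 in FBs, beside -0.02 to 0.01 over all genes.

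Of 19 partners and relatives of AP-1, 0 were called in any class (edgeR). Those with the smallest p were Mafk (1.07 ± 0.29, log2, SE) and Atf7 (-0.38 ± 0.19) in FBs, Cebpd (1.88 ± 0.67) and Maff (1.40 ± 0.64) in KC/HF, Maf (1.35 ± 0.49) and Batf (0.87 ± 0.37) in DCs/Mac, and Crem (0.69 ± 0.38) and Mafg (0.52 ± 0.34) in TCs. Upstream kinases and serum response factors also gave 0 calls. Map3k1 and Elk3 had the smallest p in FBs (0.75 ± 0.36 and -0.58 ± 0.35), Map3k1 and Mapkapk2 in DCs/Mac (0.89 ± 0.26 and 0.72 ± 0.31), Mapkapk2 and Braf in TCs (0.64 ± 0.28 and -0.66 ± 0.30) and Braf and Elk4 in KC/HF (-0.45 ± 0.23 and -0.26 ± 0.19).

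Among 24 known AP-1 targets, 0 were called as well (edgeR). Krt6b, a keratin of activated epidermis, and Areg, an EGF receptor ligand, had the smallest p in KC/HF (4.03 ± 1.01 and 2.03 ± 0.57, log2, SE). In FBs these were the cytokine Il6 (3.92 ± 1.08) and Hmox1 (1.99 ± 0.65), in DCs/Mac the protease Mmp9 (-1.75 ± 0.51) and the chemokine Ccl2 (1.39 ± 0.59), and in TCs Areg (1.70 ± 0.73) and Cd44 (-0.04 ± 0.21). Il6 was also among the leading genes of the FB cluster led by Ptx3, Ccl2 and Cxcl1. A single library held 57.7% of the cells of that cluster, and its part in the Il6 difference was not tested. At an unadjusted p under 0.05 stood 2 of the 12 targets tested in FBs, beside 2.58% of all genes, 3 of 18 in KC/HF (1.57%), 2 of 10 in DCs/Mac (4.67%) and 1 of 2 in TCs (3.46%).

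Since the members are known to respond to dissociation, they were compared with signs of cell stress. Of the 26231 barcodes, 64.4% had over 5% mitochondrial counts. Among those within the limits on genes and UMIs, 12582 barcodes over 5% were set against the 6150 up to 5%, library by library and without mitochondrial genes. Cell types were pooled, so a change in the mix of cells and a change in level cannot be told apart in this comparison. Junb averaged 609 ± 139 CPM over the limit and 1109 ± 360 CPM up to it (SD, n = 8), and Atf3 366 ± 123 against 672 ± 297 CPM. Both were lower over the limit in 8 of 8 libraries, with mean log2 ratios of -0.82 for Junb and -0.83 for Atf3.

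Of the 10 members, 5 were lower over the limit by the exact sign-flip permutation test adjusted over 14497 genes (adjusted p = 0.0190 for each), beside 10.4% of all genes, and 0 were higher, beside 43.4%. The others of the 5 were Fosl1 (-0.97), Ier2 (-0.30) and Jund (-0.29), each lower in 8 of 8 libraries. Fos and Jun had ratios of -0.36 and -0.36 and missed the threshold (exact permutation test, p = 0.0312 and adjusted p = 0.0552 for both). Egr1 (-0.05), Fosb (0.17) and Fosl2 (0.20) had values of either sign between libraries. The median ratio was -0.33 over the members and 0.14 over all genes. The summed level of the members did not run one way with the mitochondrial share, with library medians of 6450 CPM up to 5%, 4856 CPM from 5 to 10%, 4400 CPM from 10 to 20% and 6033 CPM above 20%.

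Cells with 5 to 10% were also set against cells up to 5% within each class of cells, a comparison added after the data were seen. Each class still joined several clusters, 18 in KC/HF at this limit. A change in the mix of clusters and a change in level therefore cannot be told apart here either. In KC/HF, 5 members were lower at an exact permutation p under 0.05, beside 5.07% of genes, and Fosl1 (-1.96), Atf3 (-0.87) and Junb (-0.84) passed adjustment (adjusted p = 0.0418 for each). Fosl2 alone was higher, beside 33.5% of genes. In TCs 6 of 9 members had such a p, all lower, beside 7.28% of genes (7.19% higher), led by Atf3 (-1.70), Junb (-0.79) and Fosb (-0.70), and none passed adjustment (adjusted p = 0.166 for each of the 3). In FBs Junb (-0.60) was the only member with such a p, beside 6.03% of genes lower and 12.7% higher, and in DCs/Mac Atf3 (-0.99) and Jun (-0.37) were lower, beside 6.02%, and Jund (0.46) higher, beside 14.5%.

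**Figure D4:**
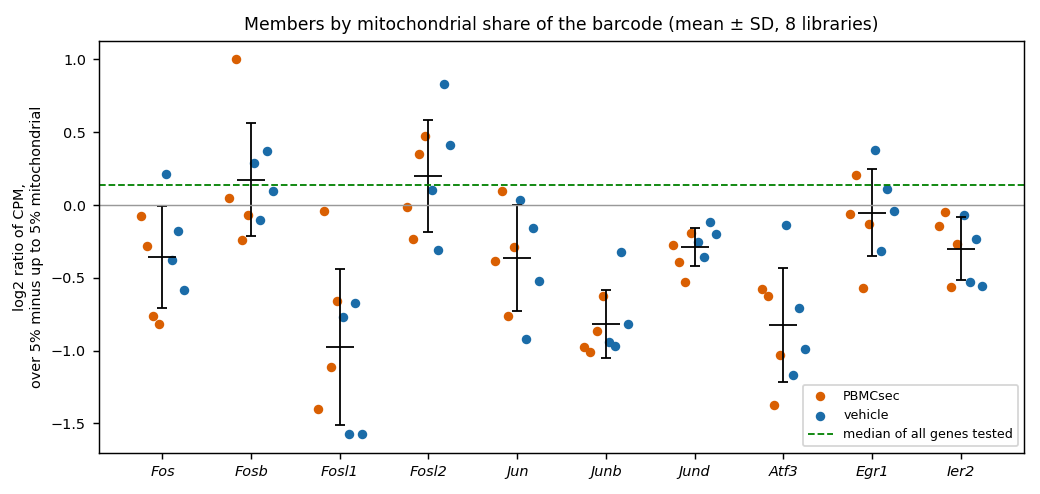
Log2 ratio of each member between barcodes over and up to 5% mitochondrial counts, with 1 point per library, bars for the mean and SD of 8 libraries, and a dashed line at the median of all genes (0.14). Fosl1, Junb, Atf3, Jund and Ier2 lie below 0 in all 8 libraries.

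Heat shock genes, a further group known to respond to dissociation, were summed in the same cells. Their list was also chosen with earlier results of these data known. In FBs, 21 of 22 heat shock genes were higher after PBMCsec, 12 of them at an unadjusted p under 0.05 (edgeR), beside 2.58% of all genes, and 0 called, with a median of 0.73 beside 0.01 over all genes, led by Dnajb4 (1.07 ± 0.31, log2, SE) and Hsph1 (1.78 ± 0.58). Their sum ranged from 3969 to 12326 CPM after PBMCsec and from 3107 to 5787 CPM after vehicle, whereas the sum of the members ranged from 4018 to 6827 and from 4279 to 8654 CPM. The smallest p in the other classes belonged to Hspe1 (0.64 ± 0.20) and Hspd1 (0.55 ± 0.25) in TCs, Cryab (1.27 ± 0.52) and Hsp90aa1 (0.61 ± 0.27) in KC/HF, and Chordc1 (0.63 ± 0.32) and Hsp90ab1 (0.34 ± 0.18) in DCs/Mac.

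Across the 8 libraries the log2 sum of the members and that of the heat shock genes were related most in DCs/Mac (Pearson r = 0.76, permutation p = 0.0291, adjusted p = 0.131 over 5 relations, Spearman rho = 0.62, permutation p = 0.115, adjusted p = 0.287). Without the libraries farthest from the median, r was 0.77. In KC/HF r was 0.69 (permutation p = 0.0525, adjusted p = 0.131, rho = 0.67, permutation p = 0.0831), and 0.42 without the 2 libraries farthest from the median there. In all kept cells r was 0.63 (permutation p = 0.0959), and 0.22 without those libraries. In FBs r was 0.25 (permutation p = 0.544), and 0.69 without the 2 libraries farthest from the median, and in TCs it was -0.44 (permutation p = 0.267), and 0.25 without them. None passed adjustment, and the part of dissociation in the levels above was not tested.

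**Figure D5:**
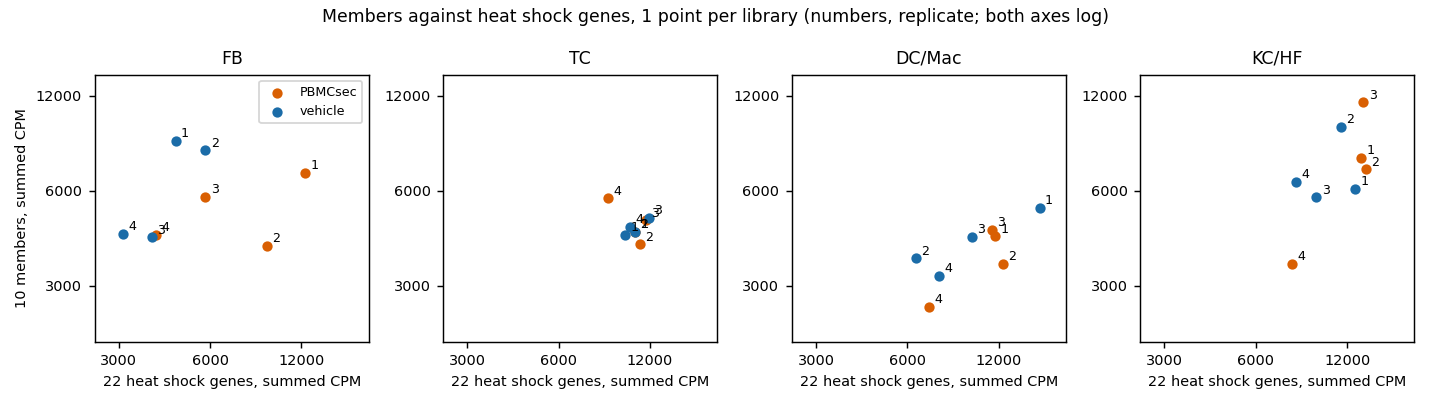
Summed CPM of the 10 members (vertical) against summed CPM of 22 heat shock genes (horizontal), both on log axes, in the 4 classes, with 1 numbered point per library coloured by treatment. In KC/HF and DCs/Mac, PBMCsec replicate 4 is low for the members, and in FBs the PBMCsec libraries reach further right than the vehicle libraries.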

How the data were processed

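The authors deposited, for each of 8 libraries, raw UMI counts per gene and barcode from Cell Ranger (3.0.2 in the submitters' processing notes and file headers) on mm10, without normalization. Here cells were filtered by the study's limits, and Gm42418, Gm17056 and Gm26917 were removed. Sums of other classes left out 3 collagens (Col1a1, Col1a2, Col3a1, kept in FBs) and 5 epidermal genes (Krt1, Krt5, Krt10, Krt14, Krtdap, kept in KCs and HFs). Cells were integrated and clustered with Seurat 5.3.0 (R 4.3.3, 2000 variable features, 30 dimensions, resolution 1), and a cluster was named from at least 3 markers found in 25% of its cells at 2-fold. The KC/HF class joined markers of both types after the cells were counted. Scrublet (scanpy 1.11.5) called 22 cells (0.358%) and was not a working caller, so the 5% of cells with the highest scores were removed as an alternative.

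For each class, the UMIs of a library were added up and fitted by edgeR 4.0.16 with the quasi-likelihood test, TMM scaling and filterByExpr. Benjamini-Hochberg adjustment ran over all genes, with adjusted p under 0.05 as the threshold. The fits were tested on simulated data. DESeq2 1.42.0, limma 3.58.1, no filter, another mitochondrial limit, a replicate block and leaving out libraries were alternatives. Single values were compared by exact permutation (Python 3.11.15, scipy 1.17.1, numpy 2.4.6, pandas 2.3.3), with a smallest p of 0.0286 for 4 against 4 libraries and 0.00781 for 8 signs. Plots used matplotlib 3.10.9. Same-numbered libraries correlated above 0.1 in every pair in TCs (0.17 to 0.40) and all kept cells (0.29 to 0.57), but not in FBs, KC/HF or DCs/Mac. In DCs/Mac the values were 0.32, 0.085, 0.28 and 0.28 for numbers 1 to 4. Each PBMCsec library correlated most with the same-numbered vehicle library there. Coordinates come from the reference annotation of mm10 by Ensembl identifier. The text names all members, the 5 genes most like Fos and Fosl1, and of each list the called genes or the 2 with the smallest p. The members and lists (AP-1 partners, other immediate early genes, upstream signalling, AP-1 targets and heat shock genes) were chosen with earlier results of these data known. Shares of cells carry counting error only. Time points, control solutions and proteins were not analysed here.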

Additional observations from a re-analysis of the deposited data

Results flagged for a closer look

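In a group of 4 libraries, a library was marked when its gap to the nearest other library passed Dixon's 95% limit, which chance alone gives in about 1 of 20 groups. This held for 3 of 94 groups. The level of Junb summed over all kept cells was 586 CPM in PBMCsec replicate 4, below the 1110 to 1204 CPM of the other PBMCsec libraries. Atf3 in DCs/Mac was 206 CPM in the same library, below 582 to 637 CPM. Jun in KC/HF was 2475 CPM in vehicle replicate 2, above the 1391 to 1524 CPM of the other vehicle libraries.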

How the results depend on the processing

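No member was called between treatments under any alternative. Genes called, 0 as reported, were 8 in all kept cells, 3 in TCs, 7 in DCs/Mac, 1 in KC/HF, 2 in KCs and 4 in HF cells with DESeq2. Without the filter they were 37 in TCs, 110 in DCs/Mac, 1 in KCs and 3 in HF cells. With the replicate block they were 13 in TCs, 7 in DCs/Mac and 3 in HF cells, and the block changed no other call. DCs/Mac had 1 call with limma, with the 10% mitochondrial limit and without the highest Scrublet scores. The libraries numbered 1 and 2 alone gave 2 calls in FBs, 1 in TCs and 8 in DCs/Mac, and those numbered 3 and 4 alone gave 4 in TCs, 1 in DCs/Mac and 3 in HF cells. Leaving out a library gave 0 to 2 in TCs (2 without PBMCsec replicate 4), 0 to 1 in DCs/Mac (1 without vehicle replicate 2) and 0 to 3 in HF cells (3 without PBMCsec replicate 4).

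With the 10% limit, the differences of Fosb in FBs (0.0011), Ier2 in TCs (-0.17), Fos in KC/HF (-0.066) and Fosl2 in HF cells (-0.18) changed sign, and 4 members were lower in KC/HF in place of 1. In the libraries numbered 3 and 4 alone, Fosl2 (0.41), Fosb (0.37) and Fos (0.20) in FBs and Egr1 in DCs/Mac (0.15) changed sign, as did Jun in DCs/Mac without the highest Scrublet scores (0.042). The relation with heat shock genes in TCs was 0.25 without the libraries farthest from the median and 0.047 with the 10% limit. The mitochondrial ratio of Egr1 ranged from -0.11 to 0.021 when a library was left out, with 0.021 without PBMCsec replicate 3. The cause was not tested. Apart from leaving out a library, 384 values of single genes and class medians and 147 counts and relations were rated the same. For a gene or relation this meant the same sign and side of the threshold. For a count it meant an equal or similar size, and for a median a move of less than the median SE. Of the rest, 5 medians moved, 9 gene values changed sign and 3 lost their call. Among counts and relations, 2 changed sign and 23 were rated stronger. Vehicle replicates 1 and 2 held 15 to 28 FBs or DCs/Mac each, which limits these comparisons.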
